A study of Mus musculus with 36 samples.

Results

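The clustered protocadherins are a family of cell adhesion genes that lie in 3 neighbouring groups, alpha, beta and gamma, on mouse chromosome 18. Members were taken by symbol (*Pcdha*, *Pcdhac*, *Pcdhb*, *Pcdhga*, *Pcdhgb* and *Pcdhgc* with a number), which gave 58 of the 54281 genes in the tables: 14 alpha, 22 beta and 22 gamma genes. The match by symbol used no measured value, but the family was chosen with earlier results of these data known. The symbol *Pcdha11* stood for a pair of genes, which are written here with their Ensembl identifiers. On the plus strand of mm10 the alpha genes span chr18:36930184-37187661, the beta genes chr18:37264938-37524479 and the gamma genes chr18:37661793-37841873.

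Each alpha and gamma gene has a first exon and a promoter of its own, which is spliced to constant exons shared by the whole cluster, whereas each beta gene is a single exon. The proteins are adhesion receptors that recognise their own kind across cell contacts, and the combination a neuron makes helps its branches to avoid each other. The choice of isoform is known to depend on DNA methylation at the promoters and on looping by CTCF and cohesin. The 5 C-type genes (*Pcdhac1*, *Pcdhac2*, *Pcdhgc3*, *Pcdhgc4* and *Pcdhgc5*) lie at the ends of the alpha and gamma clusters and are chosen less at random than the others. DNA methylation itself was not measured in the tables used here.

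Polyadenylated RNA was sequenced in 36 libraries of male (B6 × 129S6)F1 mouse embryonic stem cells (ESCs) and of cells derived from them over 5 days of neurobasal differentiation, with bFGF added to all cultures during the first 3 days, which turns wild-type (WT) cells into anterior neural progenitors. All ESC lines had been grown on mouse embryonic fibroblast feeders. The comparison of *Tet1* knockout (KO) with WT cells asks what the loss of TET1, an enzyme that oxidises methylated cytosine, does to the members, and that of the mutant (MUT) asks the same of its catalytic activity. The KO lines, KO1 and KO15, carried *Tet1* tm1Koh, and WT7 and WT34 were the WT lines. MUT lines (CM59 and CM69) were Cas9-edited clones of WT7 with a catalytically dead *Tet1*, and had WT70 beside them, which the labels call WT without saying whether it went through transfection.

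KO and WT cells gave 2 libraries each on days 0, 1, 2 and 4, 4 each on day 3 and 3 each on day 5, MUT cells gave 2 on day 3 and 2 on day 5, and WT70 gave 1 on each of those days. The libraries came from 3 experiments: the first held days 0, 3 and 5 of KO and WT, the second repeated the same lines on days 1 to 5 (day 5 with KO1 and WT7 only), and the third held MUT and WT70. Libraries of 1 group are different lines or repeat differentiations of the same line, so p-values measure the spread between these libraries. Library totals lay between 10.1 M and 26.3 M counts (M, mega), the median being 14.6 M, and no library pair was identical. The members took 0.017% of all counts.

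*Tet1* itself separated KO from WT cells. It had 406 and 424 counts in the KO libraries of day 0 against 12852 and 23713 in WT, and on day 5 KO had 710, 943 and 887 counts against 1428, 1507 and 2695. The groups did not overlap on either day, and the log2 fold change was -5.46 (SE 0.18) on day 0 and -1.13 (SE 0.12) on day 5, with adjusted p of 1.06e-16 and 7.5e-08 (edgeR's quasi-likelihood test). In TPM, which the authors scaled by transcript length, the day 5 groups overlapped: KO libraries had 15.0 to 22.8 TPM and WT libraries 17.3 to 23.7. MUT libraries had 3279 to 6559 *Tet1* counts and WT70 4945 and 3048.

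Levels are given as CPM (counts scaled to library size) for 1 gene across libraries, and as TPM (transcript abundance scaled also by length) where genes are set beside each other. A gene was called, and is said to have risen or fallen, where the adjusted p was below 0.05 and the fitted change exceeded 1 log2 unit. Of the 58 members, 45 passed the filter on low counts and were tested among 21601 genes: 11 alpha, 12 beta and all 22 gamma genes. The 13 that were not tested, *Pcdha1*, *Pcdha2*, *Pcdha8*, *Pcdhb1*, *Pcdhb4*, *Pcdhb7*, *Pcdhb8*, *Pcdhb9*, *Pcdhb10*, *Pcdhb12*, *Pcdhb13*, *Pcdhb14* and *Pcdhb15*, had 5 to 133 counts each over the 36 libraries. Reads from shared exons cannot be given to 1 gene with certainty. The share of a member's 50-base windows found in no other gene had a median of 39% in alpha (8.39% for *Pcdha4* to 51.8% for *Pcdhac2*), 95.5% in beta (35.8 to 100%) and 52.5% in gamma (1.02% for *Pcdhga10* to 64.5%), so a value of a single alpha or gamma gene is uncertain where the sum over its cluster is less so.

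Gamma genes made up most of what was measured in every group: their sum in WT on day 5 was 288.4 CPM, where alpha had 10.6 and beta 9.57. *Pcdhgc3* had the highest mean over the libraries, 8.58 TPM, followed by *Pcdhgc4* at 2.87 and *Pcdhga11* at 1.04 TPM. All other members stayed under 1 TPM on average. The highest level of an alpha or beta gene in any library was 1.19 TPM, for *Pcdhac2* in WT70 on day 5. The heatmap of all 58 genes shows this order, with few gamma genes above 1 TPM and the alpha and beta genes far below it.

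**Figure D1:**
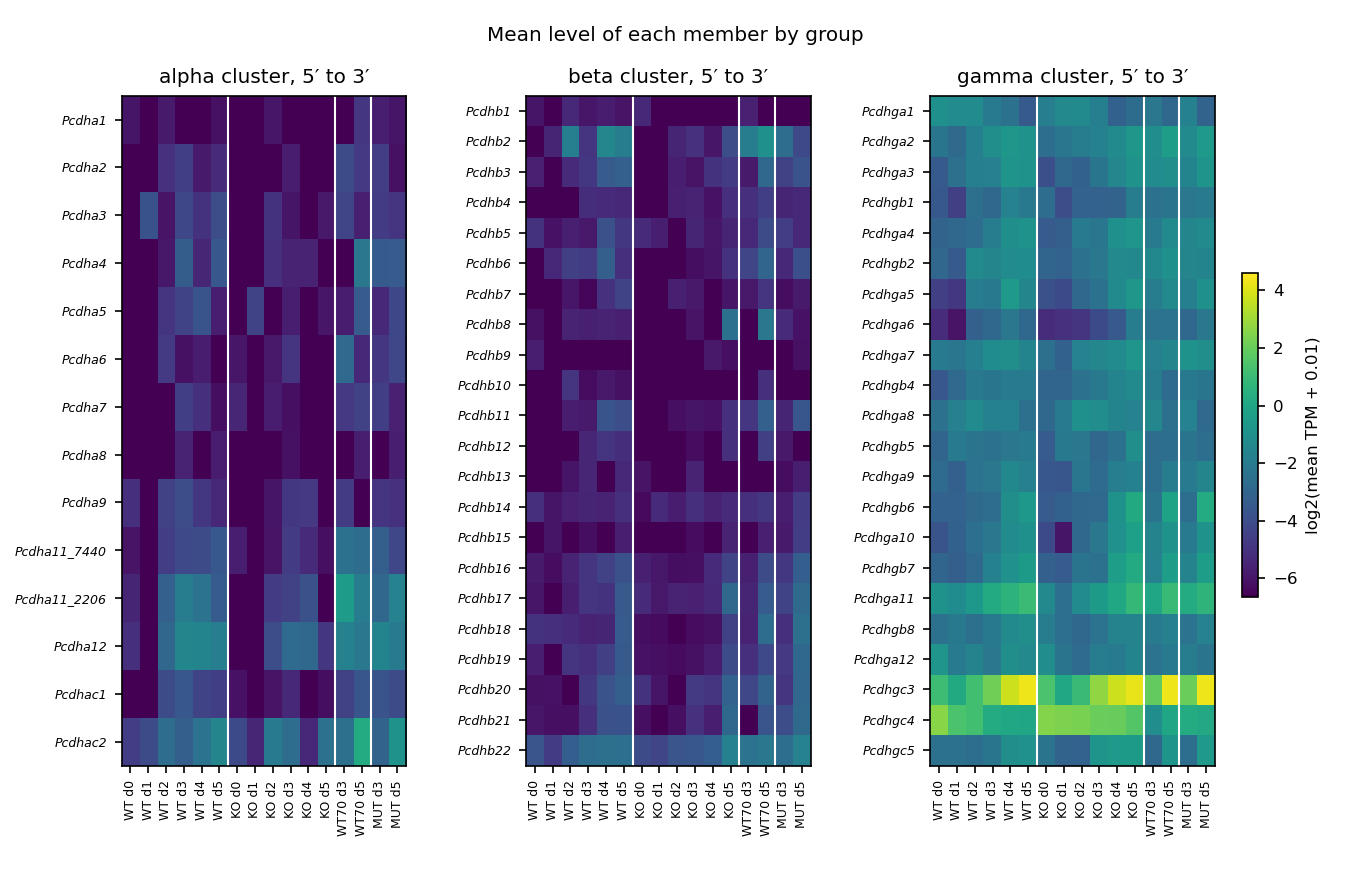
Mean level of each of the 58 clustered protocadherin genes in each of the 16 groups, as log2(mean TPM + 0.01), in order along the alpha, beta and gamma clusters. The brightest rows are *Pcdhgc3* and *Pcdhgc4*; *Pcdhgc4* darkens from day 0 to day 5 in WT and stays brighter in KO, and *Pcdha12* and its neighbours appear from day 2 and are darker in KO on days 4 and 5.

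In WT cells the sums of the 3 clusters climbed at different times, and gamma was already the highest on day 0. The alpha sum was 1.08 ± 0.0918 CPM on day 0 (SD, n = 2) and 10.8 ± 0.60 CPM on day 3 (n = 4), and stayed at 9.60 and 10.6 CPM on days 4 and 5. Beta genes summed to 2.02 CPM on day 0, 4.09 on day 3 and 9.57 on day 5. Gamma genes summed to 88.3 ± 10.8 CPM on day 0 (n = 2), 100.1 ± 4.02 on day 3 (n = 4) and 288.4 ± 23.5 on day 5 (n = 3). The alpha sum was thus level from day 3 to day 5, while most of the gain of beta and gamma fell between those days. Single alpha genes were not level: *Pcdhac2* went from 1.19 to 4.06 CPM, and the median log2 fold change of the 11 alpha genes tested was -1.02, with 8 below 0. In bulk RNA, fewer cells of a type and less RNA per cell cannot be told apart.

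Between days 0 and 3 in WT cells, 10 of the 45 members tested rose and 2 fell, beside 12.9% and 9.62% of all genes tested. The alpha genes supplied 5 of the 10. *Pcdha12* had 0 and 8 counts on day 0 and 0.268 to 0.450 TPM on day 3, a log2 fold change of 3.57 (SE 0.66, adjusted p = 0.00011, edgeR's quasi-likelihood test). All 8 counts of day 0 were in replicate 2: without replicate 1 the log2 fold change was 2.80, and without replicate 2 no day 0 count was left and the fitted 8.76 is no bound, with the call kept both times. *Pcdhac1* had no count on day 0 and 10, 14, 10 and 15 counts on day 3, and was at least 6.27-fold higher (adjusted p = 0.000553). *Pcdha11* (ENSMUSG00000102206) rose 14.9-fold (95% counting interval 4.96 to 73.0, from 3 counts), *Pcdha4* at least 8.06-fold and *Pcdha5* at least 3.33-fold. Bounds stand on a floor of 3 counts over the group at 0, and bounds and intervals cover counting error only. *Pcdhb22*, the beta gene with the highest mean TPM, rose by 1.13 on the log2 scale (SE 0.34, adjusted p = 0.0081), and was the only beta gene called. That call was lost without WT replicate 1 (adjusted p = 0.0512) or 2 (0.0817) of day 0, without WT replicate 1 of day 3 (0.97 on the log2 scale) and with no filter on low counts (0.0928). In gamma, *Pcdhga10*, *Pcdhga3*, *Pcdhga5* and *Pcdhga6* rose, by 1.23 to 2.39 on the log2 scale, and *Pcdhga12* and *Pcdhgc4* fell. Without WT replicate 1 of day 0, 6 members were called in place of 12, and *Pcdha4*, *Pcdha5*, *Pcdhga3*, *Pcdhga5*, *Pcdhga6* and *Pcdhga10* were among those lost (adjusted p = 0.0787 to 0.193). *Pcdha4* and *Pcdha5* were also lost by DESeq2 (0.0579 and 0.0514).

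*Pcdhgc4*, an isoform that neurons need to survive, was the leading gamma gene of WT ESCs. Its WT libraries had 5.30 and 6.96 TPM on day 0, 1.22 and 4.15 on day 1, 2.43 and 2.07 on day 2, and 0.855, 2.28, 1.45 and 0.164 on day 3. Every library of day 3 lay below both of day 0, and the log2 fold change was -2.35 (SE 0.43, adjusted p = 6.15e-05, edgeR's quasi-likelihood test; 30.0 ± 5.97 to 5.72 ± 3.63 CPM). On day 1 the library with 1.22 TPM also had the highest mitochondrial share of the series, 5.68% of counts against 1.21 to 3.12% in the others, and its part in that value was not tested.

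*Pcdhgc3*, which helps cortical neurons to branch, did the reverse. Its WT libraries had 2.12 and 2.21 TPM on day 0, 4.61, 4.43, 4.39 and 4.46 on day 3, 13.6 and 13.3 on day 4 and 19.4, 17.8 and 23.3 on day 5. The replicates lay close together, and no library of day 4 or 5 came near those of day 3. From day 3 to day 5 it rose by 2.24 on the log2 scale (SE 0.07, adjusted p = 8.03e-18), from 41.8 ± 2.65 to 195.5 ± 15.8 CPM. *Pcdhgc4* thus held 51.4% of the gamma TPM in WT on day 0 and 3.17% on day 5, and *Pcdhgc3* 18.1% and 66.4%. These shares depend on the scaling by length. In CPM the genes lay closer in WT on day 0, at 25.75 and 34.18 for *Pcdhgc4* against 22.18 and 23.25 for *Pcdhgc3*.

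**Figure D2:**
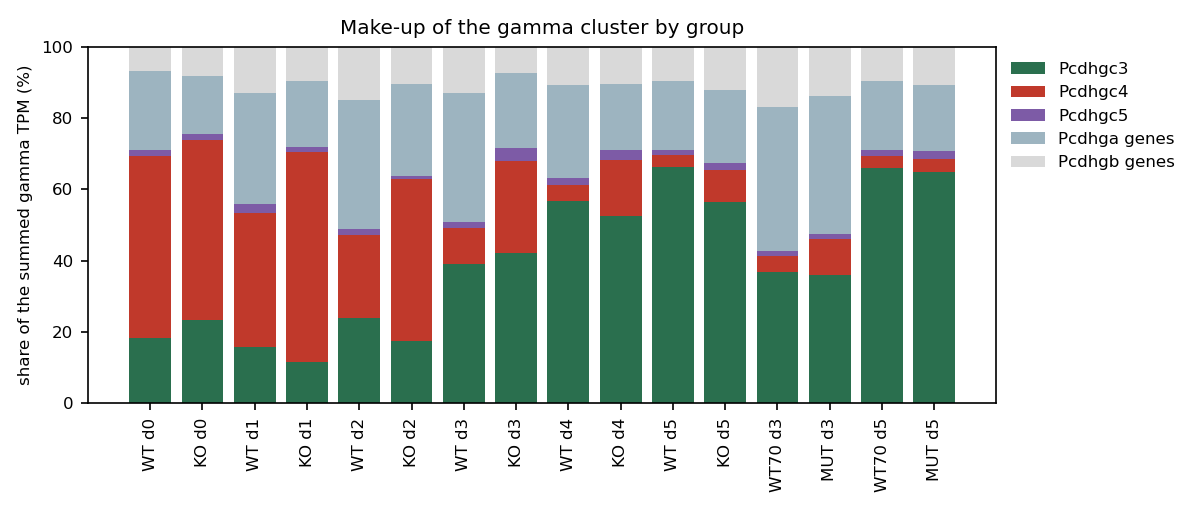
Share of the summed gamma TPM held by *Pcdhgc3*, *Pcdhgc4*, *Pcdhgc5*, the *Pcdhga* genes and the *Pcdhgb* genes in each group, in percent of the cluster, with 1 stacked bar per group (d, day). The share of *Pcdhgc4* was 51.4% on day 0 and 3.17% on day 5 in WT cells, and 50.5% and 9.07% in KO cells.

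From day 3 to day 5 in WT cells 13 members rose and 1 fell, beside 7.49% and 7.99% of all genes. Of the 12 beta genes tested, 6 were among them: *Pcdhb18* (log2 fold change 2.88, SE 0.73), *Pcdhb11* (2.63, SE 0.93), *Pcdhb2* (2.29, SE 0.68), *Pcdhb3* (2.05, SE 0.69), *Pcdhb17* (1.97, SE 0.61) and *Pcdhb19* (1.94, SE 0.68), with adjusted p of 0.00229 to 0.0268 and 6 to 20 counts over the 4 libraries of day 3. The ranges of *Pcdhb11* and *Pcdhb17* overlapped between the days. Of the 6 calls, 4 were lost when a single library was left out: *Pcdhb19* (adjusted p up to 0.181, without WT replicate 3 of day 5), *Pcdhb3* (0.1504, without replicate 1 of day 5), *Pcdhb17* (0.0733, without replicate 3 of day 5) and *Pcdhb11* (0.170, without replicate 3 of day 5, and 0.0819 by DESeq2). In gamma *Pcdhgc3*, *Pcdhgb6* (2.12, SE 0.30), *Pcdhgb7* (1.29, SE 0.28), *Pcdhgc5* (1.41, SE 0.33), *Pcdhga10* and *Pcdhga3* rose and *Pcdhga1* fell. *Pcdhac2*, which spaces serotonergic axons, was the single alpha gene to rise, by 1.74 (SE 0.50, adjusted p = 0.00644), from 1.19 to 4.06 CPM.

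In KO cells the gamma and beta sums again climbed to day 5, and the alpha sum did not stay at its day 3 level. It was 0.952 ± 0.541 CPM on day 0 (SD, n = 2), 4.53 ± 1.01 on day 2 (n = 2), 4.94 ± 0.187 on day 3 (n = 4), 2.15 ± 0.431 on day 4 (n = 2) and 2.52 ± 0.948 on day 5 (n = 3). By library, the KO sums of day 3 were 4.90, 4.71, 5.17 and 4.98 CPM against 11.4, 10.0, 11.1 and 10.7 in WT. On day 5 they were 3.59, 2.19 and 1.78 CPM against 10.1, 8.58 and 13.2. KO and WT did not overlap on days 3, 4 and 5, and the KO mean was 0.458, 0.224 and 0.237 of the WT mean. Both lines and both experiments held the order on day 3. These sums rest on 19 to 118 counts per KO library and 111 to 290 per WT library on days 3 to 5. KO also lay below WT on day 1, at 0.952 and 0.357 against 1.275 and 1.723 CPM (11 and 6 counts against 16 and 22). Those counts came from *Pcdha5* alone in KO replicate 1 and from *Pcdhac2* alone in KO replicate 2 and WT replicate 1. In WT replicate 2 they came from *Pcdha3* and *Pcdhac2*, so the sums of day 1 do not stand for the cluster. WT replicate 1 of that day is also the library with the high mitochondrial share. On day 2 KO lay below WT as well, at 5.24 and 3.82 against 6.97 and 5.49 CPM, while the ranges of day 0 overlapped.

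**Figure D3:**
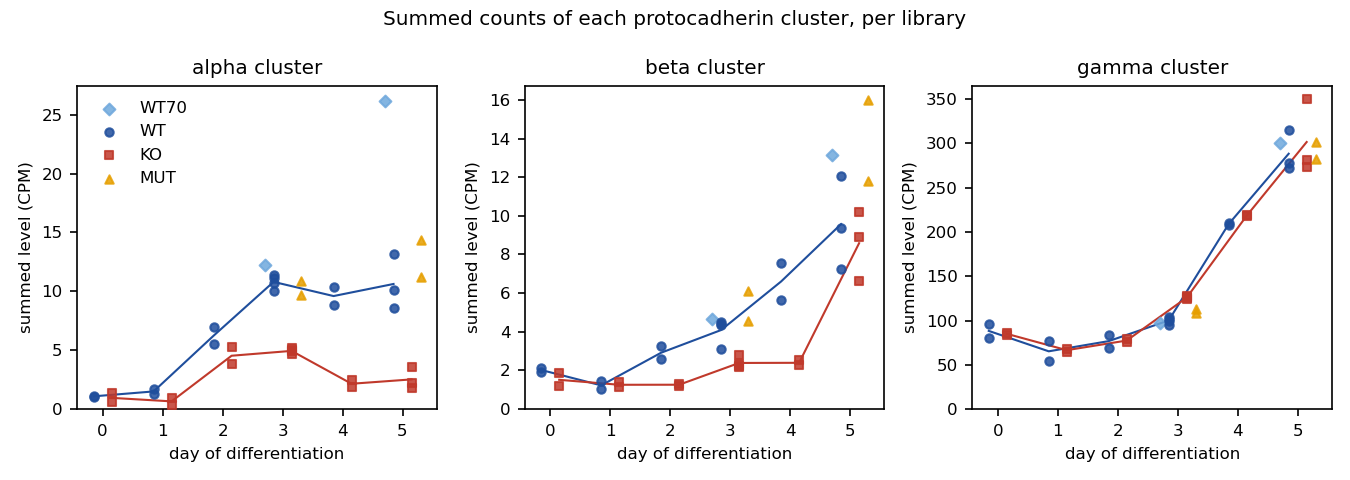
Summed level of the alpha, beta and gamma clusters in each library against the day of differentiation, in CPM, with 1 point per library and lines through the group means of KO and WT. The alpha points of KO lie under the WT points of their day from day 1 on, but those of day 1 rest on 6 to 22 counts of 1 or 2 genes per library. The gamma points of KO lie above those of WT on day 3 (123.9 to 127.6 against 94.9 to 104.5 CPM), and WT70 stands alone at 26.1 CPM for alpha on day 5.

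No member was called between KO and WT in ESCs (day 0) or on day 2, beside 0.569% of all genes higher and 0.296% lower on day 0, and 0.417% and 0.199% on day 2. At an unadjusted p under 0.05, edgeR's quasi-likelihood test gave 2 members on day 0 and 9 on day 2, and DESeq2 called 0 on both days. On day 1 no member rose and 2 fell, beside 0.292% and 0.343% of all genes. *Pcdhga11* had 14 and 40 counts in KO against 47 and 80 in WT (log2 fold change -1.43, SE 0.35, adjusted p = 0.0247), and the call was lost without KO replicate 1 (-1.07, adjusted p = 0.294) and without WT replicate 2 (-1.0, adjusted p = 0.139). *Pcdhga10* had 1 count in KO against 30 in WT (ratio 33.6, interval 5.59 to 1372), with 1.02% of its windows its own, and without KO replicate 2 its call was lost (adjusted p = 0.0745). The WT library with the high mitochondrial share is 1 of the 2 WT libraries of that day.

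On day 3, 1 member was higher in KO and 4 were lower, beside 2.09% and 1.87% of all genes. The 4 lower were alpha genes, and the median log2 fold change over the 11 alpha genes tested was -1.91, over the 12 beta genes -0.97, over the 22 gamma genes -0.28 and over all genes 0.01. Day 4 gave 1 higher and 5 lower, beside 3.4% and 4.28%. Day 5 again gave 1 and 5, beside 5.99% and 5.73%, with medians of -2.78, -0.52 and 0.40 for alpha, beta and gamma and -0.01 for all genes. On each of these days the lower members were 4 of 11 alpha genes and, on days 4 and 5, 1 of 12 beta genes, and the higher member was 1 of 22 gamma genes. The 3 days share no library, but the same 2 lines per genotype.

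*Pcdha12* had the smallest p of the members lower in KO on day 5. On day 3 its KO libraries had 0.0871, 0.142, 0.159 and 0.181 TPM against 0.351, 0.268, 0.450 and 0.319 in WT, and on day 5 KO had 0.0111, 0.0457 and 0.0164 TPM against 0.247, 0.342 and 0.234. KO lay below WT in every library of both days. The log2 fold change was -1.27 on day 3 (SE 0.38, adjusted p = 0.0246) and -3.37 on day 5 (SE 0.56, adjusted p = 6.06e-05, edgeR's quasi-likelihood test). On day 4 it was -1.27 (SE 0.56, adjusted p = 0.138), with 0.0775 and 0.181 TPM in KO and 0.309 and 0.350 in WT. From day 3 to day 5 *Pcdha12* fell by 2.38 in KO cells (SE 0.56, adjusted p = 0.00109) and was not called in WT. The day 3 call was lost within experiment 1 (-1.45, adjusted p = 0.129), within experiment 2 (-1.12, adjusted p = 0.249), and without KO replicate 1 or 2 or WT replicate 1 or 3 (-1.28 to -1.09). The day 5 call held without any single library, at -4.19 to -3.04.

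The other alpha genes called in KO cells rest on few reads. *Pcdha11* (ENSMUSG00000102206) had 10, 0, 5 and 9 counts in KO on day 3 against 18, 35, 16 and 47 in WT, 0 and 1 against 28 and 20 on day 4, and none against 7, 9 and 15 on day 5. No KO library reached a WT library on any of these days. It was lower by 2.30 on the log2 scale on day 3 (SE 0.61, adjusted p = 0.0128), by a ratio of 48.0 on day 4 (interval 8.21 to 1934), and at least 10.7-fold on day 5 (adjusted p = 0.00182). On day 3 the call was lost without WT replicate 2 (-2.0, adjusted p = 0.0551), and within experiment 1 (-2.47, adjusted p = 0.126) or experiment 2 (-2.08, adjusted p = 0.173) alone. That of day 4 was lost without KO replicate 1 (adjusted p = 0.0762), and that of day 5 held without any single library.

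*Pcdhac1*, the first C-type gene of the cluster, had 2, 2, 2 and 4 counts in KO on day 3 against 10, 14, 10 and 15 in WT. Its log2 fold change was -2.35 (SE 0.59, adjusted p = 0.00754), and that call held without any single library but not within experiment 2 alone (-2.06, adjusted p = 0.224). With the libraries of each line summed, none of the 4 alpha calls of day 3 was kept: the adjusted p was 0.0662 for *Pcdhac1*, 0.0527 for *Pcdha11* (ENSMUSG00000102206), 0.179 for *Pcdha12* and 0.1495 for *Pcdha4*. On day 4 it had no KO count and 11 in WT, at least 3.67-fold lower, and on day 5 there were 2 KO counts in all against 15 (ratio 7.80, interval 1.81 to 70.3). These calls were lost without either KO library of day 4 (adjusted p = 0.0889 and 0.0773) and without KO replicate 1 or 3 or WT replicate 2 or 3 of day 5 (adjusted p = 0.0894, 0.0795, 0.0530 and 0.0963). The day 5 call was also lost by DESeq2 (0.0563) and with libraries summed per line (0.0565), where those of *Pcdha12*, *Pcdha11* (ENSMUSG00000102206) and *Pcdha4* were kept (0.00097, 0.00243 and 0.0332).

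*Pcdha4* had 0, 0, 0 and 8 counts in KO on day 3 against 13, 6, 9 and 35 in WT (log2 fold change -3.09, SE 0.95, adjusted p = 0.0327). On day 5 it had none in KO against 8, 6 and 12, at least 9.01-fold lower (adjusted p = 0.0136). The day 3 call was lost when any of KO replicates 1 to 3, or WT replicate 1 or 4, was left out, at -2.96 to -2.66. Without KO replicate 4, which held all 8 KO counts, the call was kept and the fitted -6.62 is no bound. *Pcdha5* had no KO count on day 4 against 5 and 13, at least 6.00-fold lower (adjusted p = 0.0437), and without any 1 of the 4 libraries that call was lost. The adjusted p was then 0.192 and 0.179 without KO replicates 1 and 2, and 0.0568 and 0.191 without WT replicates 1 and 2 (edgeR's quasi-likelihood test).

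The remaining alpha genes tested were not called on day 3. *Pcdha3* had 4 counts over the KO libraries against 30 in WT, *Pcdha7* 2 against 30, *Pcdha9* 20 against 34 and *Pcdha11* (ENSMUSG00000007440) 20 against 32, each with ranges that overlapped. *Pcdha6* went the other way, with 13 counts in KO against 2 in WT (log2 fold change 2.40, SE 1.13, adjusted p = 0.188). The first 7 genes of the cluster, *Pcdha1* to *Pcdha7*, summed to 0.119 to 0.187 CPM in KO on day 5 against 0.927 to 2.09 in WT, and the last 7, *Pcdha8* to *Pcdhac2*, to 1.59 to 3.46 against 7.65 to 11.1. KO lay below WT in both parts.

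*Pcdhac2* had another course over the days. On day 3 KO had 0.188, 0.156, 0.114 and 0.144 TPM against 0.110, 0.0650, 0.0962 and 0.117 in WT, and the ranges overlapped. On day 4 KO had 4 counts against 58, a log2 fold change of -3.78 (SE 0.95, adjusted p = 0.00582), and without KO replicate 1 (-2.75) or WT replicate 1 (-3.34) the call was lost. On day 5 KO had 0.264, 0.121 and 0.129 TPM and WT 0.397, 0.201 and 0.422, an overlap, with a log2 fold change of -1.01 (SE 0.53, adjusted p = 0.164).

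The parts of the beta cluster were not in the same order on every day, and the difference between them was not tested. On day 3 the first 11 genes, *Pcdhb1* to *Pcdhb11*, summed to 0.327 to 0.760 CPM in KO and 0.555 to 1.07 in WT, an overlap, and the last 11, *Pcdhb12* to *Pcdhb22*, to 1.83 to 2.03 against 2.37 to 3.81 CPM, with none. On day 5 the first 11 summed to 0.731 to 1.19 CPM in KO and to 1.85 to 3.10 in WT, whereas the last 11 summed to 5.45 to 9.18 CPM in KO and 5.41 to 9.24 in WT. On that day the first part did not overlap between KO and WT and the second part did. On day 4 neither part overlapped, as the first had 0.205 and 0.537 CPM in KO against 2.32 and 2.97, and the second 1.99 and 2.05 against 3.31 and 4.603. The gap of the whole cluster closed from a ratio of 0.363 on day 4 to 0.897 on day 5.

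*Pcdhb2*, in the first part of the cluster and with 97.9% of its windows its own, was the beta gene called. It had 1 and 0 counts in KO on day 4 against 10 and 5 in WT (ratio 15.0, interval 2.31 to 631, adjusted p = 0.0301), and 2, 2 and 1 on day 5 against 10, 6 and 11 (log2 fold change -2.40, SE 0.77, adjusted p = 0.0202). KO was below WT in every library. The day 4 call was lost when KO replicate 1 (adjusted p = 0.0613), KO replicate 2 (0.211) or replicate 1 of WT (0.188) was left out, and that of day 5 without any library but WT replicate 2, at -2.51 to -2.24, as well as with libraries summed per line (-2.32, adjusted p = 0.0548). *Pcdhb22*, in the second part, was at 0.0611 to 0.0892 TPM in KO on day 3 and at 0.120 to 0.207 in WT (-0.90 on the log2 scale, SE 0.24, adjusted p = 0.0097, short of the fold threshold), and at 0.199 to 0.358 against 0.148 to 0.179 TPM on day 5 (0.43, SE 0.26, adjusted p = 0.235).

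*Pcdhgc4* was the member higher in KO on days 3, 4 and 5. KO libraries had 4.56, 4.82, 3.56 and 3.43 TPM on day 3, 3.12 and 4.77 on day 4 and 2.42, 3.28 and 3.42 on day 5. WT libraries had 0.164 to 2.28 TPM on day 3, 1.41 and 0.655 on day 4 and 1.23, 0.543 and 1.12 on day 5. Each KO library was above each WT library of its day. The log2 fold change was 1.77 on day 3 (SE 0.36, adjusted p = 0.000945; 18.7 ± 3.13 against 5.72 ± 3.63 CPM, SD, n = 4), 1.60 on day 4 (SE 0.51, adjusted p = 0.0312) and 1.14 on day 5 (SE 0.41, adjusted p = 0.0371; 16.5 ± 3.23 against 7.39 ± 2.10 CPM, n = 3), by edgeR's quasi-likelihood test.

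In ESCs the ranges of *Pcdhgc4* overlapped, with 5.97 and 5.56 TPM in KO and 5.30 and 6.96 in WT. The fitted difference there was -0.12 on the log2 scale (SE 0.46, adjusted p = 0.964). On day 1 it was 0.91 (SE 0.48, adjusted p = 0.362) and on day 2 1.11 (SE 0.49, adjusted p = 0.350). From day 0 to day 3 its log2 fold change within KO was -0.46 (SE 0.42, adjusted p = 0.415), beside the -2.35 within WT. The KO effect of day 5 less that of day 0 was 1.26 (SE 0.62, adjusted p = 0.191). The day 3 call held within experiment 1 (1.55, adjusted p = 0.00394), within experiment 2 (2.11, adjusted p = 0.0464) and without any single library (1.39 to 2.20). That of day 4 was lost when KO replicate 1 (1.79), KO replicate 2 (1.40) or replicate 2 of WT (1.21) was left out, and that of day 5 without KO replicate 2 (1.08) or 3 (0.97) or WT replicate 1 (1.17) or 2 (0.89).

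**Figure D4:**
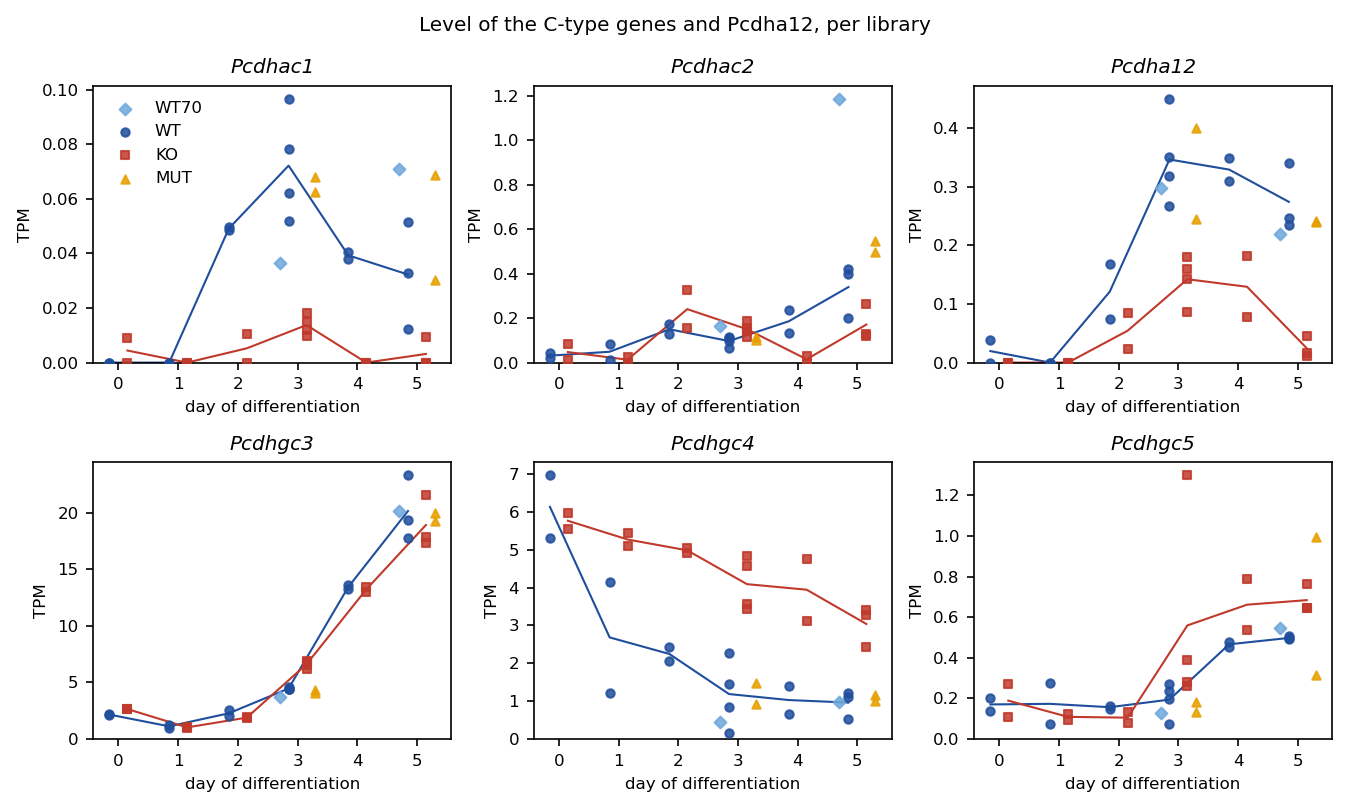
Level of the 5 C-type genes and *Pcdha12* in each library against the day of differentiation, in TPM, with 1 point per library, lines through the KO and WT means, and a scale of its own for each gene. Every KO point of *Pcdhgc4* lies above the WT points of its day from day 1 on and every KO point of *Pcdha12* below them from day 3 on, while *Pcdhgc3* climbs to 17.3 to 23.3 TPM in both by day 5.

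*Pcdhgc3* had 6.92, 6.22, 6.78 and 6.53 TPM in KO on day 3 against 4.39 to 4.61 in WT, with no overlap. The log2 fold change of 0.61 (SE 0.06, adjusted p = 1.59e-07) was short of the fold threshold, so it was not called. On day 5 KO had 17.8, 17.3 and 21.6 TPM, within the WT range or just under it (log2 fold change -0.12, SE 0.07, adjusted p = 0.219). *Pcdhgc5*, the last gene of the cluster, was not called between KO and WT on any day, with log2 fold changes of 0.74 on day 3 (SE 0.31, adjusted p = 0.122) and 0.39 on day 5 (SE 0.33, adjusted p = 0.428). *Pcdhga11* had KO values of 0.5679 to 0.805 TPM on day 3 and WT values of 0.836 to 1.38 (-0.75, SE 0.20, adjusted p = 0.00995, again short of the fold threshold).

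The other gamma genes were not called between KO and WT on days 3 to 5. On day 5 *Pcdhgb6* stood at 0.890 to 1.56 TPM in KO and 0.541 to 0.759 in WT (log2 fold change 0.76, SE 0.30, adjusted p = 0.0528), and *Pcdhgb7* at 0.869 to 1.76 against 0.607 to 0.826 (0.69, adjusted p = 0.0765). Neither overlapped between the genotypes, and neither passed the test. *Pcdhga11* had 1.405 to 2.38 TPM in KO and 1.87 to 2.20 in WT on that day, an overlap (-0.25, adjusted p = 0.440). *Pcdhga8* was 0.86 higher in KO on the log2 scale (adjusted p = 0.00661) and *Pcdhgb4* 0.77 (adjusted p = 0.0423), both short of the fold threshold.

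**Figure D5:**
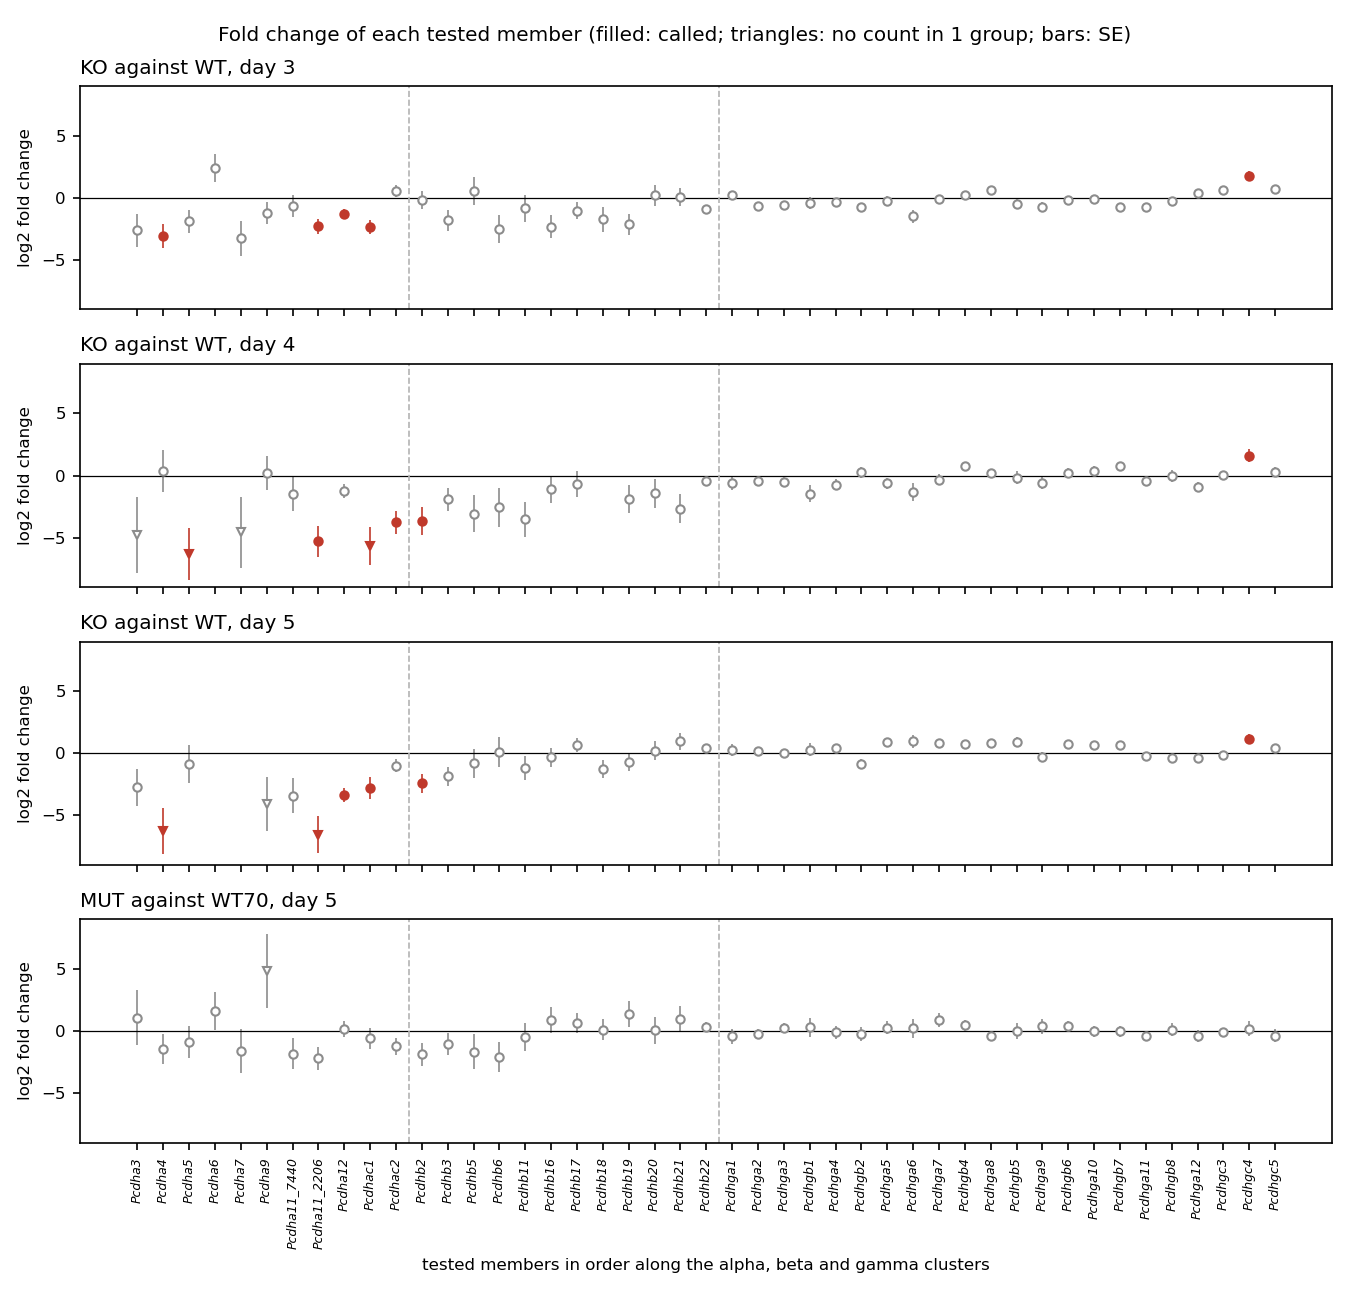
Log2 fold change of the tested members along the 3 clusters, for KO against WT on days 3, 4 and 5 and MUT against WT70 on day 5, with bars of 1 SE and dashed lines between the clusters. Filled points were called, triangles mark members with no count in 1 group, whose fitted value is no bound, and members with at most 3 counts in both groups are left out. Called points lie below 0 among the alpha genes and at *Pcdhb2*, and above 0 at *Pcdhgc4*, and no MUT point is filled.

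Within KO cells, 6 members rose and 1 fell from day 0 to day 3, beside 10.8% and 10.4% of all genes, and 22 rose and 4 fell from day 3 to day 5, beside 11.4% and 10.9%. The 22 were 15 of 22 gamma genes and 7 of 12 beta genes. Gamma genes share reads, so these 15 calls are not independent of each other. Some were lost when a single library was left out, among them that of *Pcdhgc5* (0.98 without KO replicate 3 of day 3). The first 6 held 2 alpha genes, of which *Pcdha12* was at least 13.8-fold higher on day 3 (no count on day 0, adjusted p = 6.47e-05). *Pcdhgc3* rose by 1.17 (SE 0.09) and then by 1.51 (SE 0.07). *Pcdhgb6* rose by 3.08 (SE 0.30) from day 3 to day 5, *Pcdhgb7* by 2.76 (SE 0.29) and *Pcdhb17* by 3.72 (SE 0.64), with adjusted p of 3.75e-09, 1.31e-08 and 2.87e-05. *Pcdhga10*, *Pcdhga11* and *Pcdhga3* rose by 1.92, 1.33 and 1.63, and *Pcdhb22*, *Pcdhb21*, *Pcdhb19* and *Pcdhb20* by 1.66, 2.55, 3.38 and 1.95. Falling in these 2 days were *Pcdhga1* and 3 of 11 alpha genes: *Pcdha12*, *Pcdha11* (ENSMUSG00000102206, at least 4.79-fold lower) and *Pcdha6* (at least 2.597-fold lower). The *Pcdha6* call was lost by DESeq2 (adjusted p = 0.124) and without KO replicate 1 of day 3 (0.0789) or KO replicate 1 (0.0679) or 2 (0.0768) of day 5, and that of *Pcdhb20* by DESeq2 (0.0579) and without any library but replicate 2 of day 3 (0.0652 to 0.115). In WT cells no alpha gene was called lower over the same days, but the median log2 fold change of the 11 alpha genes was -1.02, with 8 below 0, beside -2.20 and 9 in KO, and the difference between WT and KO in this change was not tested.

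*Pcdhga8* was the only 1 of 45 members tested (2.22%) whose KO effect was called different between days 5 and 0, a share under that of all genes. KO had 1.21 and 1.41 CPM on day 0 against 1.73 and 2.05 in WT, and 2.66, 3.08 and 2.81 on day 5 against 1.21, 1.39 and 2.16. KO was under WT on day 0 and over it on day 5 in every library. The difference of the effects was 1.40 (SE 0.39, adjusted p = 0.0138), beside 3.05% of all genes higher and 4.52% lower in this comparison. The call was lost without KO replicate 1 (1.31) or WT replicate 2 (1.27) of day 0. By edgeR's quasi-likelihood test it was also lost with no filter on low counts (adjusted p = 0.117) and with only the compared libraries (0.0563). No member was lower.

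In MUT cells no member was called against WT70, on day 3 (beside 0.0463% of all genes higher and 0.102% lower) or on day 5 (1.26% and 0.611%). At an unadjusted p under 0.05, edgeR's quasi-likelihood test gave 4 members on day 3 and 1 on day 5, and DESeq2 called none. WT70 was 1 library per day, assumed to vary as the other groups do. *Pcdha12* had 0.245 and 0.400 TPM in MUT on day 3 and 0.240 and 0.241 on day 5, against 0.299 and 0.219 in WT70, and log2 fold changes of 0.10 (SE 0.62) and 0.13 (SE 0.64). *Pcdhgc4* had 1.47 and 0.931 TPM in MUT against 0.448 in WT70 on day 3 (1.56, SE 0.73, adjusted p = 0.805), and 1.01 and 1.16 against 0.991 on day 5 (0.18, SE 0.62, adjusted p = 0.970). The MUT values of *Pcdhgc4* lay inside the range of WT7 and WT34 on both days. *Pcdhgc3* had 4.10 and 4.35 TPM against 3.71 on day 3, and 20.0 and 19.3 against 20.2 on day 5.

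Of the alpha and beta genes called lower in KO, *Pcdha4*, *Pcdha11* (ENSMUSG00000102206), *Pcdhac1* and *Pcdhb2* had counts in all MUT libraries. *Pcdha7* and *Pcdha9*, at 0 in KO on day 5 and not called, were also at 0 in MUT replicate 1 of that day. They were near the floor in WT too, with 0, 0 and 2 counts of *Pcdha7* and 2, 0 and 4 of *Pcdha9* on day 5, and 7 and 0 in WT70. *Pcdha4* had 16 and 15 counts in MUT on day 3 and 5 and 25 on day 5, where WT70 had 0 and 37. *Pcdha11* (ENSMUSG00000102206) had 23 and 27, then 13 and 8, against 32 and 44 in WT70, with a log2 fold change of -2.18 on day 5 (SE 0.92, adjusted p = 0.252). *Pcdhac1* had 14 and 17, then 6 and 15, against 8 and 14. For *Pcdhb2* the counts were 2 and 9, then 6 and 4, against 11 and 17 (-1.87 on day 5, SE 0.92, adjusted p = 0.353).

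WT70 stood apart in its alpha genes on day 5. Its alpha sum was 26.1 CPM, where WT7 and WT34 had 8.58 to 13.2 and MUT 11.2 and 14.4 CPM, and *Pcdhac2* stood at 1.19 TPM in it against 0.201 to 0.422 in WT7 and WT34 and 0.497 and 0.546 in MUT. The MUT to WT70 ratio of 0.490 for alpha on day 5 therefore rests on that library. Against all WT libraries together no member was called in MUT, while 90 genes were higher and 92 lower on day 3, and 624 and 504 on day 5, of 20338 tested. The values were then 0.05 and -0.08 for *Pcdha12*, 0.35 and 0.07 for *Pcdhgc4* and 0.10 and -0.01 for *Pcdhgc3* on days 3 and 5.

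The KO effect less the MUT effect was tested for each member, KO against WT7 and WT34 and MUT against WT70. On day 3 no member was called, beside 0.227% of all genes higher and 0.167% lower (edgeR's quasi-likelihood test gave 12 members at an unadjusted p under 0.05, DESeq2 called none). On day 5 no member was higher and 1 was lower, beside 1.14% and 2.48%. That was *Pcdha12*, at -3.51 (SE 0.90, adjusted p = 0.0201), and without KO replicate 1 of day 5 it was -3.15 with an adjusted p of 0.0543. For *Pcdhgc4* the differences of 0.21 (SE 0.82) on day 3 and 0.96 (SE 0.74) on day 5 did not pass (adjusted p = 1 and 0.590), so that the KO and MUT effects on it were not shown to differ.

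Markers of cell types also differed between KO and WT cells. Among early neuron markers, 6 of 14 fell and 1 rose in KO on day 3, 11 fell on day 4 and 12 fell on day 5. Their summed level on day 5 was 70.2 to 89.1 CPM in KO and 255 to 268 in WT. It was already lower in KO on day 0, at 278 and 297.5 CPM against 384 and 402. In WT its mean was 393 CPM in ESCs, 437 on day 3 and 262 on day 5, so this sum is not a measure of neurons alone. Neural progenitor markers fell in 3, 6 and 11 of 12 genes on days 3, 4 and 5, to 245 to 285 CPM on day 5 against 707 to 750. Mesoderm markers rose in 3, 10 and 11 of 13 genes (575 to 630 CPM against 40.1 to 195 on day 5) and endoderm markers in 3, 8 and 9 of 10 (1680 to 2512 CPM against 592 to 641). Feeder fibroblast markers summed to 144 to 180 CPM in KO and 171 to 193 in WT on day 5, with 2 of 12 higher and 2 lower. No gene of these 5 lists was at 0 over all KO or all WT libraries of day 3 or of day 5, and on day 4 *Lum*, a fibroblast gene, was. The part of these markers in the results on the members was not tested.

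In MUT cells on day 5, 1 early neuron and 1 neural progenitor marker fell and 3 mesoderm and 5 endoderm markers rose, against the single WT70 library. The endoderm sum was 691 and 808 CPM in MUT and 307 in WT70, but 592 to 641 in WT7 and WT34, so the size of that rise rests on WT70. The summed early neuron level was 244 and 270 CPM in MUT against 235 in WT70. The alpha sum there, 11.2 and 14.4 CPM, was within or above the range of WT7 and WT34.

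The nonclustered protocadherins, adhesion genes outside the 3 clusters, did not share the direction of alpha. Of 10 tested, 3 rose in KO on day 3: *Pcdh7* (log2 fold change 2.41, SE 0.20), *Pcdh8*, a gene of presomitic mesoderm (2.49, SE 0.40), and *Pcdh19* (2.15, SE 0.29). The same 3 rose on day 4, by 1.96, 2.84 and 3.39, and on day 5 *Pcdh7* (1.28, SE 0.20) and *Pcdh10* (1.27, SE 0.43) rose. None of the 10 fell on any day, and in MUT none was called by edgeR's quasi-likelihood test, with 1 and 3 at an unadjusted p under 0.05 on days 3 and 5 and 0 and 1 called by DESeq2.

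Of 11 genes that signal for or process protocadherins, *Ret*, a receptor kinase, rose in KO on day 4 (2.18, SE 0.38) and day 5 (2.26, SE 0.33) and in MUT on day 5 (2.69, SE 0.58, adjusted p = 0.00845), and *Ptk2b*, a focal adhesion kinase, rose in KO on day 5 (1.03, SE 0.15). None fell on days 3 to 5.

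None of 10 architecture genes (*Ctcf*, cohesin and its loaders) was called between KO and WT on days 3, 4 and 5, with 1, 0 and 3 at an unadjusted p under 0.05 by edgeR's quasi-likelihood test and none called by DESeq2. None of 14 genes that silence the clusters was called either, with 8, 4 and 5 at an unadjusted p under 0.05 and none by DESeq2. Within that list *Dnmt3b*, the methyltransferase that acts on the cluster promoters in early embryos, had log2 fold changes of -0.45 (SE 0.07) on day 3 and -0.64 (SE 0.08) on day 5, and *Setdb1* -0.31 (SE 0.04) on day 3, each with an adjusted p under the threshold and a fold short of it. Of the other TET genes none was called, with *Tet2* at 0.81 (SE 0.16) and *Tet3* at 0.47 (SE 0.10) on day 5.

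Of 13 genes that flank or sit between the clusters 1 was called. *Rell2*, a RELT-like gene next to the clusters, fell in KO on day 0 (-1.54, SE 0.41), day 4 (-2.29, SE 0.37) and day 5 (-3.49, SE 0.36, adjusted p = 3.7e-08), where KO had 0.0455 to 0.105 TPM and WT 1.50 to 1.94. On day 3 its log2 fold change of -1.0 (SE 0.24, adjusted p = 0.00469) was not past the fold threshold. MUT had 0.495 and 0.701 TPM on day 5 against 2.00 in WT70, between KO and WT (log2 fold change -0.81, SE 0.40, adjusted p = 0.349). The other 12 were not called on any day.

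The profile over all 58 members differed most between KO and WT, but the ranges met. As mean difference in log2(TPM + 1), libraries of the same line in different experiments differed by 0.0479 to 0.0746 on day 3, lines of 1 genotype in 1 experiment by 0.0470 to 0.0795, and KO from WT in 1 experiment by 0.0775 to 0.125. On day 5 the same ranges were 0.0889 to 0.111, 0.0542 to 0.0786 and 0.107 to 0.145. On both days the highest differences within a genotype lay above the lowest between KO and WT. This is a description with no test, since members share reads.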

How the data were processed

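Single-end polyA RNA-seq reads had been trimmed with Trim Galore 0.6.4 and quantified by the authors with Salmon 0.14.1 against mm10 transcripts, and the deposited tables (3 of expected counts and 3 of TPM, 54281 genes each) were used as they stand. Per the submitters' processing notes DESeq2 1.30.0 and R 4.0.2 were also used. The authors' estimated counts need not be whole numbers (73.8% were, zeros included) and were rounded. The deposited TPM values are scaled by transcript length and by library. Members were matched by symbol and located in GENCODE M21 (all 58 matched).

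Counts were filtered with filterByExpr (minimum count 10, total 15), scaled by TMM and fitted with edgeR 4.0.16 (R 4.3.3) as 16 group means and a term for experiment 2, with 19 residual degrees of freedom. The quasi-likelihood test was adjusted by Benjamini-Hochberg over all 21601 genes. CPM used TMM library sizes. Cluster sums were given no test. The same steps were run on simulated counts, with known fold changes set in 1 group and only in genes with a mean above 1 CPM. Most alpha and beta members lay below that level, so the simulation does not bear on their calls. Other settings tried were RLE size factors, DESeq2 1.42.0, all genes kept, limma 3.58.1 on log2(TPM + 1) and log2(TPM + 0.1) of genes with at least 1 TPM in 2 libraries, other fold thresholds, subsets of libraries, and each library left out. Cluster sums with overlapping genes outside the rule were added after seeing the data. Figures and summaries used Python 3.11.15.

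Named were *Tet1*, the C-type genes, the 4 members of each cluster with the highest mean TPM, in each comparison up to 6 called members of each cluster with the smallest p, and of every other list up to 4 genes with the smallest p. The remaining members were counted. Members, gene lists and tests were chosen with earlier results of these data known. KO and WT lines were not paired, since the labels do not say which belong together. Within a genotype, the same lines link the days. As a check, the difference between the lines of 1 genotype was correlated between days over 21601 genes, with r of -0.0256 to 0.0457.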

Additional observations from a re-analysis of the deposited data

Results flagged for a closer look

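Of 96 single values examined in the groups of 4 libraries, 10 had a library far from the other 3, where chance gives about 1 in 20 groups. In KO cells on day 3 these were *Pcdhgc5* in replicate 1 at 1.30 TPM, *Pcdhgb2* and *Pcdhgb5* in replicate 4 at 0.372 and 0.231 TPM, *Pcdha4* in replicate 4 at 0.0442 TPM, *Pcdha6* in replicate 1 at 0.0510 TPM, *Pcdha7* in replicate 2 at 0.0147 TPM and *Pcdhb6* in replicate 3 at 0.0130 TPM. In WT cells on day 3 they were *Pcdha6* in replicate 1 at 0.0168 TPM, *Pcdhb17* in replicate 3 at 0.0625 TPM and the beta sum in replicate 2, which was low at 3.09 CPM. For *Pcdha4*, *Pcdha7* and *Pcdhb6* in KO and *Pcdha6* in WT, all other libraries of the group were at 0. The rate of about 1 in 20 does not apply to such values at the floor.

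A pair of effects was called by the test of the difference itself. Each was 1 of 45 members tested (2.22%), beside 2.48% of all genes lower in the first comparison and 3.05% higher in the second. Each call was lost when some single library was left out, and the first rests on WT70 as the only control of MUT. The KO effect on *Pcdha12* less the MUT effect on day 5 was -3.51 on the log2 scale, and the KO effect on *Pcdhga8* on day 5 less that on day 0 was 1.40.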

How the results depend on the processing

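Counts of members called (5, 6 and 6 between KO and WT on days 3, 4 and 5) depended on how low counts were treated. Only 4 members passed the TPM filter, so limma on log2(TPM + 1) and on log2(TPM + 0.1) called 0 and 0 on day 1, 1 and 1 on day 3, 1 and 0 on day 4, 1 and 1 on day 5, 0 and 0 for KO less MUT on day 5 and for day 5 less day 0, 1 and 1 for WT day 3 against day 0, 1 and 2 for WT day 5 against day 3, 1 and 1 for KO day 3 against day 0, and 1 and 3 for KO day 5 against day 3. With no filter, 1 member was called on days 0 and 2, 8 on day 3, 1 in MUT on day 3 and 1 for KO less MUT on day 3. With only the compared libraries the counts were 0 on day 1, 1 on day 2, 2 on day 5, 3 and 2 in MUT on days 3 and 5, 1 for KO less MUT on day 3 and 9 for WT day 5 against day 3. At a log2 fold change over 1.5 they were 1 on day 1, 9 for WT day 5 against day 3, 4 for KO day 3 against day 0 and 0 for day 5 less day 0. DESeq2 called 3 on day 4, where 3 more had no adjusted p. On day 3, 1 member was called with libraries summed per line and 1 in experiment 2 alone, which was *Pcdhgc4*. Beyond fewer genes or libraries entering a fit, the cause was not tested.

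Summed TPM in place of CPM moved these ratios: alpha to 0.409 (KO to WT, day 3), 0.576 and 0.612 (MUT to WT70, days 3 and 5) and 12.2 (WT, day 3 to day 0), beta to 0.247 and 0.200 (KO to WT, days 2 and 4), 0.726 (MUT to WT70, day 5) and 4.71 (KO, day 5 to day 3), and gamma to 1.37 and 1.06 (KO to WT, days 3 and 4), 0.963 (WT, day 3 to day 0, against 1.13 in CPM) and 1.38 (KO, day 3 to day 0). The *Tet1* effect of KO less that of MUT on day 5, -1.13 in counts, turned to 0.28 and 0.29 in log2(TPM + 1) and log2(TPM + 0.1). Taking in overlapping genes outside the rule, an alternative chosen after seeing the data, moved none of 36 sums beyond the spread.

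Leaving out 1 library at a time gave 0 to 1 members called between KO and WT on day 0, 1 to 3 on day 1, 0 to 0 on day 2, 3 to 6 on day 3, 0 to 4 on day 4 and 3 to 7 on day 5, 0 to 1 and 0 to 2 for KO less MUT on days 3 and 5, 0 to 1 for day 5 less day 0, 0 to 0 in MUT on both days, 6 to 13 and 13 to 15 for WT day 3 against day 0 and day 5 against day 3, and 6 to 7 and 23 to 26 for the same in KO. The counts moved most without KO replicate 1 of day 0 (1), KO replicate 1 or 2 of day 1 (1 each), KO replicate 2 or WT replicate 1 of day 3 (3 each), KO replicate 1 (0), KO replicate 2 (2) or WT replicate 1 (3) of day 4, KO replicate 3 of day 5 (3), WT replicate 1 of day 0 for WT day 3 against day 0 (6), and WT replicate 2 of day 0 for day 5 less day 0 (0). For KO less MUT they were KO replicate 4 on day 3 (1), and KO replicate 1 (0) and WT replicate 3 (2) on day 5. Where 1 library was left in a group, it was assumed to vary as the others do, and WT70 could not be left out.

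In a fit with the line added as replicate block, the days of WT gave 12 (day 3 against day 0) and 15 (day 5 against day 3) members called, and those of KO 6 and 26, each within 1.5 times the count without the block. Depth limits the alpha and beta genes: many rest on under 20 counts in a group, and 13 members could not be tested.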
